A study of Mus musculus with 36 samples.

Results

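The comparison described here set 9 lung tumours driven by Variant 3 of EML4-ALK and labelled Setd2 against 9 Variant 3 tumours labelled Neo, 18 of the 36 tumours in the study. Members were taken by their sample group label. EGFP-positive neoplastic cells had been sorted from mouse lung, and their mRNA was sequenced. In the sgSetd2 tumours a guide RNA targeted Setd2, and the sgNeo tumours carried a control guide and kept Setd2 intact, so that both groups share the fusion, the EGFP label and a guide. The sgSetd2 tumours carry the codes CE450 (tumours 1, 3 and 5), CE454 (tumours 3, 4 and 5) and CE456 (tumours 6, 9 and 10). The sgNeo tumours carry CE428, CE429 and CE433 (tumours 1, 2 and 3 of each). What a code stands for, how the fusion and the guides were delivered, how many guides were used, what drives EGFP, and the strain and age of the mice are not stated in the sources used here. The code was taken as the unit of replication, which leaves 3 units per group, so a p-value reflects how codes of a group vary. The other 18 tumours carry Variant 1 of the fusion, 9 with sgNeo and 9 with sgSetd2. Their values appear here only where the Variant 3 changes are set beside theirs. Their codes were nonetheless in the same fit, so they share in the gene filter and the estimate of spread behind every Variant 3 p-value.

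EML4-ALK joins the kinase domain of ALK to EML4, a microtubule-binding protein, and the variants differ in how much of EML4 they keep. SETD2 is the methyltransferase that places the trimethyl mark on lysine 36 of histone H3 along transcribed gene bodies, a mark tied to splicing, DNA methylation and suppression of cryptic transcription, and SETD2 is a tumour suppressor in several cancers, lung adenocarcinoma among them. Below, CPM is the usual depth-normalised count, scaled by the trimmed mean of M values. A gene passed when its adjusted p was under 0.05 in edgeR's quasi-likelihood test on counts summed per code, and a log2 fold change is sgSetd2 over sgNeo. Where 3 values are given per group, they are the codes in the order listed above, and where a range is given it is over the 9 tumours.

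The libraries held 27.3 M to 137.2 M counts (M for mega), with a median of 39.1 M in sgNeo and 54.7 M in sgSetd2. Epcam at 335 to 711 CPM, Nkx2-1 at 310 to 469 CPM and Sftpc at 68099 to 150012 CPM marked every library as lung epithelium. Of 5 pan-leukocyte markers Ptprc stayed at or under 3.57 CPM, while Lcp1 was at 119 to 527 CPM. Of 14 macrophage markers 2 (Marco and Siglecf) were at 0 and 6, these included, under 1 CPM in every tumour, whereas Cd68 was at 1.81 to 17.3 CPM and Chil3 reached 12.3 CPM. Cd79b, a B cell gene, was at 3.80 to 26.8 CPM in sgNeo and 1.51 to 7.28 CPM in sgSetd2. The mean of 10 fibroblast markers was highest in tumours 3, 4 and 5 of CE454, at 2.84, 2.29 and 1.44 on the log2(CPM + 1) scale, against 0.20 to 1.24 in sgNeo. In tumour 3 of CE454 Col3a1 reached 23.02 CPM, and Dcn reached 74.3 CPM in tumour 5 of CE450. Of the sgNeo codes 2 of 3 were male by Ddx3y, and of the sgSetd2 codes 1 of 3. On the first principal component, which held 35.9% of the variance, 3 sgNeo tumours stood apart: tumour 2 of CE428 at -74.2 and tumours 1 and 2 of CE433 at -62.7 and -45.3. The other 6 sgNeo tumours lay between -7.3 and 3, and the 9 sgSetd2 tumours between 16 and 24.9. The 3 tumours also had the highest sgNeo means of a 26-gene cell cycle list, 4.47 to 5.03 on the log2(CPM + 1) scale against 2.66 to 3.59 in the other sgNeo tumours. The sgSetd2 range of that mean was 2.96 to 4.70. Results are therefore given with these tumours and, where the call is lost, also without them. Those p-values are called "without the 3 tumours" below.

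**Figure D1:**
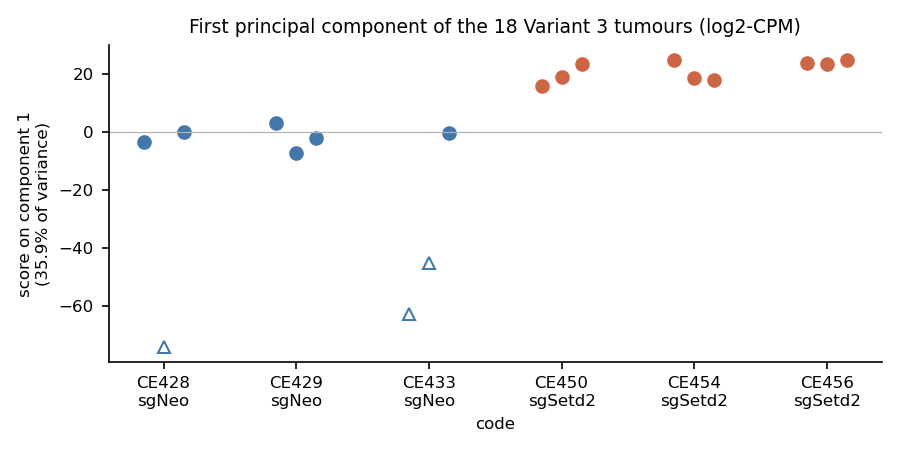
Score on the first principal component (vertical axis, arbitrary units) of the 18 Variant 3 tumours by code (horizontal axis), 1 point per tumour, with the 3 sgNeo tumours that stand apart as open triangles. Tumour 2 of CE428 and tumours 1 and 2 of CE433 lie at -74.2, -62.7 and -45.3, and all 9 sgSetd2 tumours lie between 16 and 24.9.

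Setd2 RNA did not separate the groups. It was 52.9, 65.7 and 45.2 CPM in the sgNeo codes and 33.6, 43.8 and 59.8 CPM in the sgSetd2 codes. By tumour it ran from 39.2 to 68.7 CPM in sgNeo and from 28.2 to 81.6 CPM in sgSetd2, where tumour 10 of CE456 was the highest of all 18. This is a log2 fold change of -0.26 (SE 0.22), with an adjusted p of 0.647. An exact permutation test over codes gave a two-sided p of 0.4, where 0.1 is the smallest this design allows. Without CE456 the log2 fold change was -0.49 (adjusted p = 0.296). A guide that cuts the gene need not lower its RNA, and the counts do not show edited alleles, so this level does not check the labels.

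Of 20009 genes tested, 299 passed (1.49%), 176 of them higher with sgSetd2 (0.88%) and 123 lower (0.615%). The higher genes had a median log2 fold change of 1.27, the lower genes -1.88, and all genes tested 0.02. A difference of at least 2-fold was reached by 123 of the higher and 106 of the lower genes. In 148 of the 299 genes, 98 higher and 50 lower, the 9 and 9 tumours did not overlap at all, against 1.3% of all genes tested. The 3 and 3 codes did not overlap in any of the 299, against 19% of all genes tested. Both counts rest on the values used for the calls, so they describe the called genes and are no separate evidence for them. Without the 3 tumours, 153 genes passed, of which 133 were among the 299, and all 299 kept their direction. With the Variant 3 codes fitted alone 172 passed, 128 of them among the 299. With the sex of the code as a covariate 188 passed, 184 of them among the 299. Leaving out each code and each tumour in turn gave 24 fits, and 48 genes, 27 higher and 21 lower, passed in every one.

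Genes of the IL-6 receptor family and its STAT3 feedback, and acute-phase genes, were among the higher genes. Cytokines of this family signal through receptors that share gp130 and activate STAT3, which binds a palindromic site of the form TTCNNNGAA, induces acute-phase genes, and induces SOCS3, which shuts the receptor down. A list of 21 receptor and feedback genes also held chains of the IL-4 and IL-13 receptors, which are not of this family, Il4ra among them. In it 20 genes were tested and 3 rose (Socs3, Osmr and Il4ra), against 0.88% of all genes tested. None fell, and the median log2 fold change was 0.34. In a list of 18 acute-phase genes, 15 were tested and 5 rose (Fga, Fgg, Steap4, Cp and C3), none fell, and the median was 0.93. The promoters of 3 of these genes are shown because each holds a TTCNNNGAA match in the 250 bases before its RefSeq start. The sequences are from RefSeq on GRCm38.p6, read 5′ to 3′ on the strand of the gene, and capitals mark the match. Socs3 is chr11:117969367-117969616 on the minus strand, Fga chr3:83025903-83026075 on the plus strand and Steap4 chr5:7960222-7960456 on the plus strand. The bases nearest the start that lie in an annotated coding transcript were left out, 77 in Fga and 15 in Steap4. The whole Socs3 stretch lies within the span that GENCODE gives the gene (117966079 to 117970047), so it is not upstream of every annotated start.
Socs3: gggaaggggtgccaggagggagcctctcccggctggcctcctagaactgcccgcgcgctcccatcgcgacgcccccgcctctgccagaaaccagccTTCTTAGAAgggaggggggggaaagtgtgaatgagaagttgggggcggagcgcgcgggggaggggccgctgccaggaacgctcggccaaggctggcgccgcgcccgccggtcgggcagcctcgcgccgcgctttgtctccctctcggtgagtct
Fga: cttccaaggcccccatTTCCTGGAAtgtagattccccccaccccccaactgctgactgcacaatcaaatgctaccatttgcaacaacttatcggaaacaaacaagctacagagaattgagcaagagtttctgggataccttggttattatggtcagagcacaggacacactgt
Steap4: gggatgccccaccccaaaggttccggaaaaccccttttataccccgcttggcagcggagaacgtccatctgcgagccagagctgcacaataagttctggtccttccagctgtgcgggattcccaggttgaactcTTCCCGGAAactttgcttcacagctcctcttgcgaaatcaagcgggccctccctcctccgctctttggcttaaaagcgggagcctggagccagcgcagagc
The Socs3 match lies 154 to 146 bases before the start, the Fga match 234 to 226 and the Steap4 match 116 to 108. The palindrome was found in 7.02% of 32851 mouse promoter windows of this length. Its narrower form TTCCNGGAA, which the Fga and Steap4 matches also fit, was in 0.913%. In the acute-phase list 4 of the 15 genes with a window held TTCNNNGAA, and in the receptor and feedback list 1 of 19, near the share of all windows. Of the genes that rose, 2 of 5 and 1 of 3 held it, and Fgg, Cp, C3, Osmr and Il4ra did not. The other acute-phase matches were in Fgb, which was not tested, and Itih4, which did not pass. A match describes these letters and does not show binding.

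Socs3, the feedback inhibitor named above, was higher in every sgSetd2 tumour. It was 201, 228 and 217 CPM in the sgNeo codes and 401, 480 and 488 CPM in the sgSetd2 codes. Over tumours the sgNeo values ran from 167 to 266 CPM (median 219) and the sgSetd2 values from 371 to 564 CPM (median 426), with no overlap. The log2 difference of 1.09 (SE 0.11) had an adjusted p of 0.00178, and Socs3 passed in all 24 leave-one-out fits. Osmr, the receptor chain for oncostatin M, ran from 19.8 to 129 CPM (median 75.8) in sgNeo and from 155 to 268 CPM (median 190) in sgSetd2. The groups did not overlap, and the adjusted p was 0.00789 (log2 fold change 1.37, SE 0.19). Il4ra, the chain shared by the IL-4 and IL-13 receptors, had codes at 157, 215 and 185 CPM against 435, 405 and 281 CPM. Its tumours overlapped and its call was narrow (log2 fold change 1.01, SE 0.22, adjusted p = 0.0462), and without the 3 tumours it had 0.71 and 0.182. Stat3 itself ran from 198 to 347 CPM in sgNeo and from 202 to 427 CPM in sgSetd2 and did not pass.

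Fga and Fgg encode the alpha and gamma chains of fibrinogen, the clotting protein made mainly by liver. The highest sgNeo tumour had 12.1 CPM of Fga and 14.4 CPM of Fgg. The lowest sgSetd2 tumour had 55.4 CPM of Fga and 51.7 CPM of Fgg, so both genes separated all 9 and 9 tumours. The codes had 203, 108 and 129 CPM of Fga and 195, 79.8 and 156 CPM of Fgg with sgSetd2, with CE450 the highest in both. Without the 3 tumours the adjusted p was 0.0155 for Fga and 0.0067 for Fgg. The genes are neighbours on chromosome 3, with 11 kb between them (GRCm38, 83007724 to 83015049 for Fgg and 83026076 to 83033627 for Fga). Steap4, a metalloreductase of iron and copper, was between 85.3 and 203 CPM in sgSetd2 tumours. In sgNeo it was between 0.025 and 19.5 CPM, lowest in tumour 2 of CE428, and without the 3 tumours its adjusted p was 0.00132.

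Cp (ceruloplasmin, a copper-carrying ferroxidase) and C3 (the central complement component) rose less. Cp was 109, 129 and 152 CPM in sgNeo codes and 293, 337 and 269 CPM in sgSetd2 codes (log2 fold change 1.20, SE 0.21, adjusted p = 0.0188). C3 was 109, 106 and 114 CPM against 221, 260 and 145 CPM (0.93, SE 0.19, adjusted p = 0.0377). Tumours overlapped in both, and neither passed without the 3 tumours (log2 fold changes 0.78 and 0.54, adjusted p = 0.194 and 0.307). Lrg1 and Orm1, which encode secreted acute-phase glycoproteins, had log2 fold changes of 1.02 and 1.29 and did not pass (adjusted p = 0.0777 and 0.062). Orm1 nonetheless ran from 16.9 to 76.5 CPM in sgNeo and from 94.4 to 161 CPM in sgSetd2, without overlap.

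**Figure D2:**
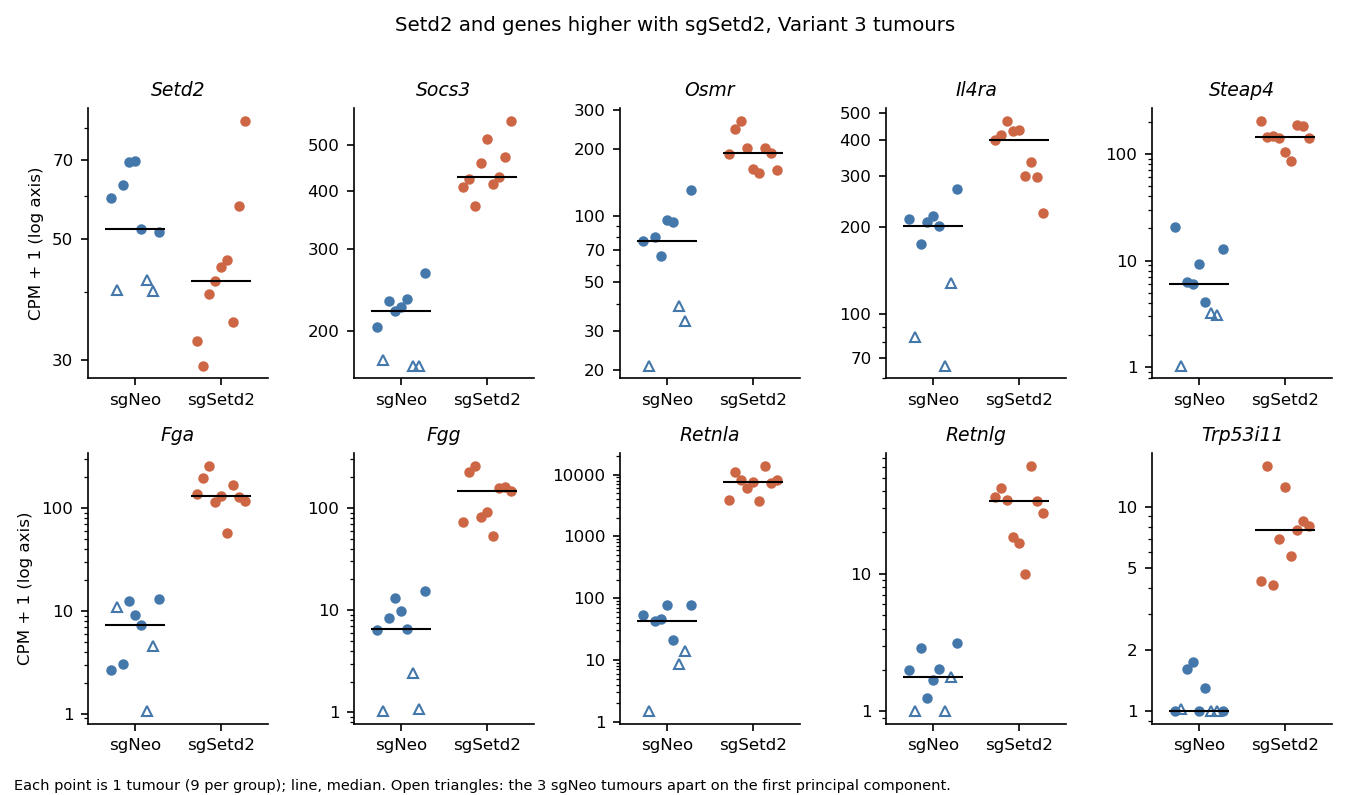
CPM + 1 on a log axis for Setd2 and 9 genes that rose with sgSetd2, 1 point per tumour (9 per group), with the median as a line and the 3 sgNeo tumours that stand apart as open triangles. Setd2 overlaps between the groups, whereas all 9 sgSetd2 values of Socs3 (371 to 564 CPM) lie above all 9 sgNeo values (167 to 266 CPM).

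Of the resistin-like genes, which encode small secreted cysteine-rich proteins, 3 were tested and 2 rose, against 0.88% of all genes tested. Retnla, which lung epithelium and macrophages are known to make in type 2 inflammation, was between 3664 and 13870 CPM in the sgSetd2 tumours and between 0.475 and 77.0 CPM in the sgNeo tumours. The lowest sgNeo values were in the 3 tumours that stand apart, at 0.475, 7.53 and 12.8 CPM. The codes were 31.2, 61.8 and 43.6 CPM against 7889, 6206 and 8639 CPM, a mean difference of 166-fold. Retnlg, known from bone marrow and neutrophils, was between 8.93 and 60.2 CPM with sgSetd2 and between 0 and 2.12 CPM with sgNeo (log2 fold change 4.94, SE 0.75, adjusted p = 0.0104). The genes lie 28.2 kb apart on chromosome 16, and reads of near-identical family members may be shared between them in ways the counting does not show. The neutrophil markers S100a8, S100a9, Ly6g and Csf3r stayed at or under 1.77, 0.08, 0.14 and 0.02 CPM. Cxcr2 was between 4.12 and 26.4 CPM in sgSetd2 and between 0 and 4.0 CPM in sgNeo. The summed level of the neutrophil list, which holds Retnlg, was 0.46 to 5.18 CPM in sgNeo and 16.0 to 65.2 CPM in sgSetd2. Retnlg was the largest part of the sum in every sgSetd2 tumour (60.2 of 65.2 CPM in tumour 6 of CE456). The sum is therefore no separate measure of neutrophils, and the part of neutrophil RNA in the Retnlg result was not tested. In bulk samples, more cells of a type and more RNA per cell cannot be told apart.

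Cholesterol synthesis genes rose in larger number than those of any other list. Cells make cholesterol from acetyl-CoA through mevalonate, squalene and lanosterol, and the transcription factor SREBP2 switches on these genes together when sterols are scarce, aided by NF-Y at CCAAT boxes. Of 21 synthesis genes tested 6 rose, against 0.88% of all genes tested, none fell, 20 had a positive log2 fold change, and the median was 0.86 against 0.02 for all genes. The 3 sgSetd2 codes lay above the 3 sgNeo codes in 14 of the 21. The 6 genes were Idi1, Fdft1, Sqle, Lss, Cyp51 and Msmo1, which act between the isoprenoid precursors and the methylsterols. Of them 4 passed without the 3 tumours. The promoter of Lss, lanosterol synthase, is shown as an example with its CCAAT box, which reads ATTGG on the strand printed (RefSeq, GRCm38.p6, chr10:76531355-76531604, plus strand). Capitals mark it, 62 to 58 bases before the start. The last bases of the stretch lie within the span that GENCODE gives the gene, which begins at 76531588.
Lss: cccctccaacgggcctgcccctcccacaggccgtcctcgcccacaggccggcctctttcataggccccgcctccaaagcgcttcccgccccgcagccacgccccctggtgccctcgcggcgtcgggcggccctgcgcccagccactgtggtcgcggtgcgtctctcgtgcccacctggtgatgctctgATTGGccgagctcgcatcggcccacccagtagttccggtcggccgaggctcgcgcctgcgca
CCAAT on either strand was in 33.8% of all windows and in 15 of the 16 synthesis genes with a window, among them 4 of 4 that rose and have one. No window was found for Sqle and Fdft1.

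Sqle, squalene epoxidase, a rate-limiting step after mevalonate, had codes at 39.1, 41.3 and 41.7 CPM in sgNeo and at 135, 146 and 88.8 CPM in sgSetd2. Its tumours ran from 21.5 to 78.4 CPM (median 34.2) and from 56.9 to 179 CPM (median 126), so the groups overlapped at their edges. The log2 difference of 1.60 (SE 0.17) had an adjusted p of 0.00187, and Sqle passed in all 24 leave-one-out fits. Msmo1, a methylsterol oxidase, did so too, with codes at 64.2, 74.4 and 60.9 CPM against 161, 172 and 119 CPM (log2 fold change 1.18, SE 0.14, adjusted p = 0.00427). Idi1, which isomerises isopentenyl diphosphate, was 18.2, 19.8 and 20.1 CPM against 46.9, 54.8 and 31.3 CPM (adjusted p = 0.00936). In each of these genes CE456 was the lowest sgSetd2 code.

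Lss was 27.2, 30.5 and 19.8 CPM against 64.4, 71.7 and 46.1 CPM (log2 fold change 1.23, adjusted p = 0.0145). Fdft1, squalene synthase, and Cyp51, which demethylates lanosterol, passed with adjusted p = 0.0362 and 0.0359 and did not pass without the 3 tumours (0.0695 and 0.132), where their log2 fold changes were 0.74 and 0.82 against 0.85 and 1.08. Hmgcs1, Acat2 and Mvd, enzymes of the mevalonate steps, had log2 fold changes of 0.93, 0.89 and 0.86 and did not pass (adjusted p = 0.0846, 0.0539 and 0.0615). Srebf2, which encodes SREBP2, ran from 41.9 to 109 CPM in sgNeo and from 37.8 to 84.4 CPM in sgSetd2. Tumour 10 of CE456 had the lowest mean of the synthesis list among the sgSetd2 tumours, 4.71 on the log2(CPM + 1) scale.

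**Figure D3:**
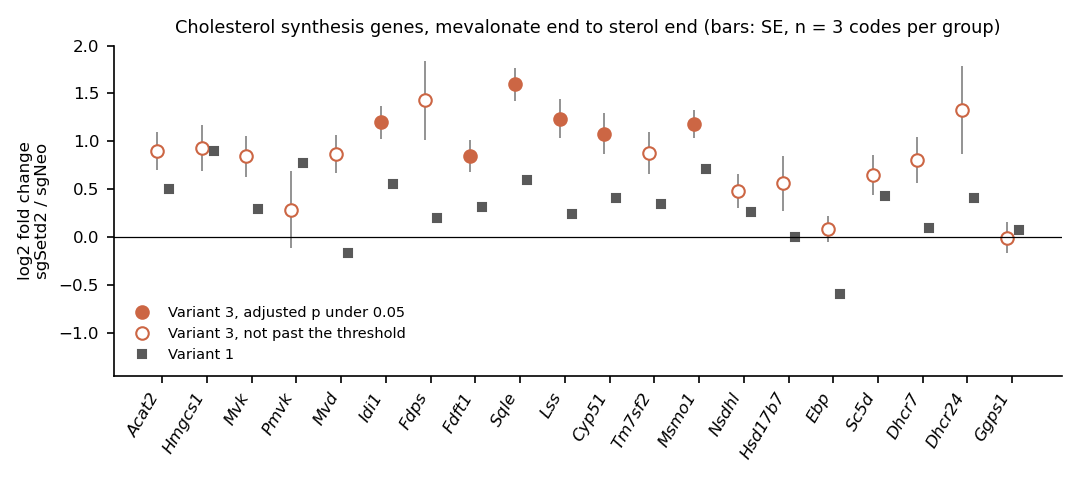
Log2 fold change, sgSetd2 over sgNeo (vertical axis), of 20 of the 21 cholesterol synthesis genes in pathway order, with the branch enzyme Ggps1 last. Circles show Variant 3 with its SE (3 codes per group), filled where the adjusted p was under 0.05, and squares show Variant 1. The 6 filled circles run from Idi1 to Msmo1, and Ggps1 is the only Variant 3 value shown that is not above 0.

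MHC class I molecules show peptides to CD8 T cells. Of 17 class I presentation genes tested 4 rose, against 0.88% of all genes tested, and none fell, with a median log2 fold change of 0.76. Of 8 class II genes 0 passed, against 1.49% of all genes tested, with a median of -0.08. H2-K1 was 1048, 1304 and 752 CPM in sgNeo codes and 1829, 2303 and 2238 CPM in sgSetd2 codes (log2 fold change 1.04, SE 0.20, adjusted p = 0.0296). H2-D1 was 1616, 1755 and 1207 CPM against 2756, 3399 and 2922 CPM (0.99, SE 0.16, adjusted p = 0.0148). H2-Q6 and H2-Q7 passed with adjusted p = 0.0412 and 0.0436, and as near-identical copies their counts are uncertain. B2m, the light chain of every class I molecule, missed the threshold (codes 1090, 1492 and 783 CPM against 1878, 2449 and 3378 CPM, adjusted p = 0.0521). Tap1, a peptide transporter, did not pass (log2 fold change 1.05, adjusted p = 0.104). Without the 3 tumours 2 of the 4 passed, H2-D1 and H2-Q6 (adjusted p = 0.0408 and 0.0470). H2-K1 and H2-Q7 did not (log2 fold changes 0.72 and 1.47, adjusted p = 0.0536 and 0.0585). With the sex of the code as a covariate H2-D1 passed (adjusted p = 0.0383). H2-K1, H2-Q6 and H2-Q7 did not pass in that fit (adjusted p = 0.0641, 0.0965 and 0.106).

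Of 29 interferon response genes tested 28 had a positive log2 fold change, with a median of 0.96. Only Oas1a passed (adjusted p = 0.0499), where 0.88% of all genes tested rose. Oas1a, a sensor of double-stranded RNA, ran from 1.37 to 7.76 CPM in sgNeo and from 6.92 to 24.5 CPM in sgSetd2. It passed in 6 of the 24 leave-one-out fits, and not without the 3 tumours (log2 fold change 1.00, adjusted p = 0.202). Irf7, a transcription factor of the response, had codes at 5.22, 5.50 and 3.16 CPM against 6.41, 12.2 and 21.1 CPM and did not pass (adjusted p = 0.0833). Tumours 6 and 9 of CE456 had the highest list means, 5.09 and 4.39 on the log2(CPM + 1) scale.

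Alveolar type 2 cells make surfactant and are held to be a common origin of lung adenocarcinoma. In a list of 18 of their genes 2 rose and 1 fell, against 0.88% and 0.615% of all genes tested, and the median was 0.08. With the 3 tumours left out 0 rose and 1 fell. Lyz2, a lysozyme, was 981, 1143 and 2363 CPM in the 3 sgNeo tumours that stand apart, 1200 CPM in tumour 2 of CE429, and 7424 to 8638 CPM in the other sgNeo tumours. The sgSetd2 tumours held 9411 to 20006 CPM, above all of them (log2 fold change 1.69, SE 0.28, adjusted p = 0.0132). Without the 3 tumours Lyz2 did not pass (log2 fold change 1.18, adjusted p = 0.150). Chil1, a chitinase-like secreted protein, had 1.17 with them (adjusted p = 0.0135) and 0.87 without (0.118). Lyz2 is also a macrophage gene. The 14-gene macrophage list holds it, and 10 of the 14 genes were tested. Their mean was 1.56 to 2.14 on the log2(CPM + 1) scale in sgNeo and 1.78 to 2.35 in sgSetd2. Markers too low to be tested are not in this mean, and Lyz2 is by far its highest member, so it is no separate measure of macrophages. In that list Cd68 was at 4.34 to 12.5 CPM in sgNeo and 1.81 to 17.3 CPM in sgSetd2, Mrc1 reached 2.76 and 3.69 CPM, and Marco and Siglecf were at 0. The part of macrophage RNA in the Lyz2 result was not tested. Napsa, the aspartic protease that processes surfactant protein B, went the other way. It was 144, 201 and 347 CPM in the 3 tumours, 626 to 1795 CPM in the other sgNeo tumours and 153 to 335 CPM in sgSetd2. The Napsa log2 difference of -1.64 (SE 0.26) had an adjusted p of 0.0111. With the 3 tumours left out the log2 fold change was -1.98 (adjusted p = 0.00177).

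The next 3 lists had 1 call each, which says little about a list, and over all genes tested 0.88% rose and 0.615% fell. Cyp2f2, an airway club cell cytochrome P450, was the only 1 of 14 club and ciliated cell genes to pass. It ran from 4.38 to 21.4 CPM in sgNeo and from 45.2 to 228 CPM in sgSetd2, highest in CE454, without overlap (log2 fold change 3.26, SE 0.44, adjusted p = 0.00682). Elf5, an ETS transcription factor of epithelium, was the only 1 of 15 lineage transcription factors to pass. Its codes fell from 64.2, 47.0 and 59.5 CPM to 28.5, 26.1 and 26.0 CPM (log2 fold change -1.08, SE 0.21, adjusted p = 0.0307). Without the 3 tumours it had -0.82 (adjusted p = 0.106). Of 13 type 1 cell genes 0 passed, against 1.49% of all genes tested, with a median of -0.60. Without the 3 tumours Hopx, a homeodomain gene of these cells, passed as lower (log2 fold change -1.66, adjusted p = 0.0467), against -1.56 (adjusted p = 0.0542) with them. Of 9 gastric and intestinal genes tested, only Pgc, the pepsinogen C gene, passed, and it fell. The 3 tumours held 41.2, 53.4 and 35.9 CPM of it, the other sgNeo tumours 0 to 3.29 CPM and the sgSetd2 tumours 0 to 0.0799 CPM, so the groups overlapped at 0 and the call (adjusted p = 0.0103) was lost without the 3 tumours (0.0585).

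Several lower genes were lower in all sgSetd2 codes and passed with and without the 3 tumours. Gdnf, a neurotrophic growth factor that signals through RET, ran from 7.48 to 35.4 CPM (median 24.9) in sgNeo and from 0 to 4.83 CPM (median 0.314) in sgSetd2 (log2 fold change -4.40, SE 0.55, adjusted p = 0.0046). Ret ran from 7.35 to 30.4 CPM in sgNeo and from 28.8 to 59.0 CPM in sgSetd2 and did not pass (log2 fold change 1.01, adjusted p = 0.0626). No other of the 7 GDNF family genes passed, where 1.49% of all genes tested did. Cfap52, a gene of motile cilia, had codes at 20.6, 22.9 and 20.3 CPM against 2.63, 3.48 and 2.26 CPM (log2 fold change -2.93, SE 0.31, adjusted p = 0.00187). Its highest sgSetd2 tumour, 6.67 CPM, was below its lowest sgNeo tumour, 11.6 CPM. Cd83, a surface glycoprotein of activated immune cells, had codes at 22.7, 14.4 and 22.3 CPM against 1.66, 3.41 and 2.09 CPM (adjusted p = 0.00187).

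Ldhb, the lactate dehydrogenase subunit that favours pyruvate, fell from 184, 193 and 195 CPM to 70.7, 92.6 and 63.0 CPM (log2 fold change -1.34, SE 0.17, adjusted p = 0.00487). Its tumours did not overlap, with 160 CPM the lowest in sgNeo and 103 CPM the highest in sgSetd2. Cers6, a ceramide synthase, fell from 70.3, 68.5 and 63.1 CPM to 23.3, 27.0 and 21.4 CPM (-1.50, SE 0.26, adjusted p = 0.0191). In the same list of 20 glycosphingolipid genes Ugt8a, which makes galactosylceramide, rose. No other gene of the list passed, where 1.49% of all genes tested did. Ugt8a was near the floor. It was at 0 in all 9 sgNeo tumours and between 0 and 6.48 CPM in sgSetd2, at 0 in tumour 3 of CE450 and tumour 10 of CE456. Ugt8a passed (adjusted p = 0.000196), with 0 counts over the sgNeo group and 1868 over the sgSetd2 group. Taking 3 counts as the limit that a count of 0 allows, the ratio of the groups, scaled for depth, was 555-fold. That limit covers counting alone and not the spread between tumours or codes, so it is no lower bound for the fold. Adora1, the adenosine A1 receptor, fell from 56.7, 35.3 and 24.7 CPM to 1.58, 2.16 and 3.15 CPM (adjusted p = 0.00159). It lies 9 kb from Chil1 on chromosome 1, which rose.

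Among abundant genes, the carboxypeptidase M gene Cpm fell from 664, 572 and 577 CPM to 240, 227 and 103 CPM (log2 fold change -1.67, SE 0.31, adjusted p = 0.0259). Slpi, a secreted inhibitor of neutrophil elastase, fell from 307, 289 and 310 CPM to 129, 184 and 109 CPM (-1.10, SE 0.20, adjusted p = 0.0246). Hsd17b10, a mitochondrial dehydrogenase, fell from 225, 189 and 211 CPM to 131, 122 and 117 CPM (-0.75, SE 0.13, adjusted p = 0.0183). These 3 genes passed without the 3 tumours as well. With the sex of the code as a covariate Cpm and Hsd17b10 passed (adjusted p = 0.0468 and 0.0382) and Slpi did not (0.0522). Pabpc1, the cytoplasmic poly(A)-binding protein, passed (-0.62, adjusted p = 0.0212) but not without them (-0.47, adjusted p = 0.105). Ccnd2, a D-type cyclin, was between 0.487 and 13.8 CPM in sgNeo and at or under 0.437 CPM in sgSetd2, and passed with them (adjusted p = 0.0293) and without (0.0338).

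The lower genes with the largest fold changes mostly lost their call without the 3 tumours that stand apart. Of the 15 lower genes named for their fold change, 12 did not pass without them, and the 3 that did were Ccnd2, Gdnf and Adora1. All kept their direction, and several folds stayed about as large. The log2 fold change went from -4.05 to -3.95 in Cdh16, a cadherin, from -6.68 to -6.06 in Ctnnd2, a catenin, and from -3.63 to -3.26 in Slc35f1. It shrank more in others, from -3.81 to -1.42 in Ddc, which makes dopamine and serotonin. Cltrn, a brush-border protein, had codes at 109, 64.0 and 153 CPM against 1.69, 1.59 and 0.245 CPM (log2 fold change -6.54 with and -5.51 without the 3 tumours, adjusted p = 0.0409 and 0.124). Igfbp5, which binds insulin-like growth factors, had 70.9, 41.7 and 129 CPM against 6.16, 5.89 and 1.39 CPM (-4.17 and -3.65, adjusted p = 0.0279 and 0.0585). Pf4, a chemokine, reached 1413 CPM in sgNeo and 28.1 CPM in sgSetd2, with sgNeo and sgSetd2 medians of 73.2 and 13.9 CPM (-4.06 and -2.47, adjusted p = 0.0111 and 0.0541). Apoc1, a lipoprotein component, had 245, 232 and 488 CPM against 28.2, 11.8 and 2.98 CPM (-4.49 and -3.55, adjusted p = 0.0421 and 0.108). Its neighbour Apoe, 3.4 kb away on chromosome 7, ran from 0.246 to 131 CPM in sgNeo and from 1.00 to 7.47 CPM in sgSetd2 (-3.20 and -2.22, adjusted p = 0.0378 and 0.455). Col18a1, a basement membrane collagen, and Cd24a, a surface sialoglycoprotein, had log2 fold changes of -3.15 and -1.41 (adjusted p = 0.0191 and 0.0436), and of -2.03 and -0.56 without the 3 tumours (adjusted p = 0.167 and 0.631). Tmed6 went from -4.78 to -3.81, and Csf2rb, a shared cytokine receptor chain with a near-identical copy that leaves its counts uncertain, from -6.43 to -4.42.

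**Figure D4:**
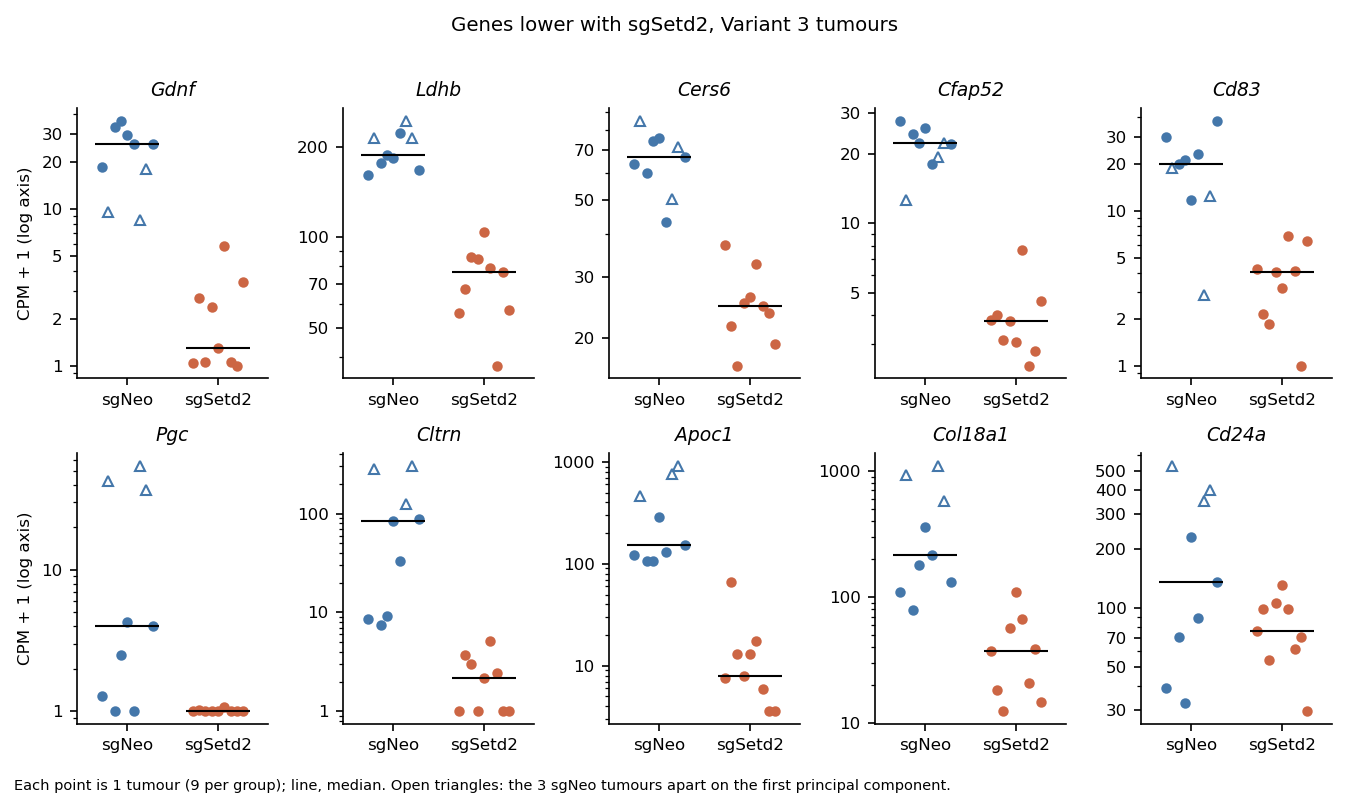
CPM + 1 on a log axis for 10 genes that fell with sgSetd2, 1 point per tumour (9 per group), with the median as a line and the 3 sgNeo tumours that stand apart as open triangles. In Pgc the triangles (41.2, 53.4 and 35.9 CPM) are the highest sgNeo values, whereas in Ldhb all 9 sgNeo tumours (160 to 243 CPM) lie above the sgSetd2 tumours (36.2 to 103 CPM).

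Of the 15 higher genes named for their fold change, Fam184a (adjusted p = 0.0487) and Jazf1 (0.0136) did not pass without the 3 tumours (0.0901 and 0.236), although their log2 fold changes were then larger, 4.78 against 3.90 and 3.28 against 2.98. Togaram2, whose product has microtubule-binding TOG domains, had codes at 12.6, 15.3 and 12.4 CPM against 92.6, 71.5 and 114 CPM (log2 fold change 2.79, SE 0.20, adjusted p = 0.000196). Trp53i11, a p53-induced gene, was at or under 0.751 CPM in sgNeo and between 3.16 and 14.9 CPM in sgSetd2 (adjusted p = 0.0132). Of 24 p53 targets it was the only one that rose, against 0.88% of all genes tested. Plk2, a polo-like kinase, was the only one that fell, against 0.615% (log2 fold change -1.87, adjusted p = 0.0356, and -1.78 and 0.0689 without the 3 tumours). Pygl, liver glycogen phosphorylase, had codes at 8.74, 19.0 and 7.30 CPM against 143, 85.1 and 74.8 CPM (log2 fold change 3.11, SE 0.53, adjusted p = 0.017). Stk32a, a kinase, and Corin, the protease that activates the atrial natriuretic peptide precursor, had log2 fold changes of 3.30 and 2.77 (adjusted p = 0.0111 and 0.0104). Clec12a, an inhibitory lectin receptor of myeloid cells, was between 0 and 1.69 CPM in sgNeo and between 1.50 and 10.4 CPM in sgSetd2 (adjusted p = 0.0128). Abhd11os, from 0.257, 0.254 and 0.431 CPM to 6.88, 5.66 and 9.96 CPM, lies antisense to Abhd11, and reads of such a pair cannot be told apart because the library kit does not mark strand.

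Of 21 glycolysis and hypoxia genes 2 rose, against 0.88% of all genes tested. Pfkfb3, which makes the activator of phosphofructokinase, had means over codes of 41.9 ± 6.51 CPM (SD, n = 3) and 106 ± 8.75 CPM (SD, n = 3) (log2 fold change 1.34, SE 0.16, adjusted p = 0.00377). Its tumours did not overlap (24.7 to 53.6 CPM and 75.6 to 132 CPM). Ankrd37, a hypoxia-inducible gene, had 37.0, 34.4 and 31.2 CPM against 145, 67.5 and 244 CPM (log2 fold change 2.15, adjusted p = 0.0251, and 1.93 and 0.0640 without the 3 tumours). Among abundant genes, Cd63, a tetraspanin of late endosomes and exosomes, rose from 909, 899 and 1021 CPM to 1952, 1724 and 2025 CPM (log2 fold change 1.01, SE 0.13, adjusted p = 0.0062). Sat1, the polyamine acetyltransferase, rose from 879, 1045 and 956 CPM to 1564, 1544 and 1661 CPM (0.73, SE 0.12, adjusted p = 0.0153). Gclc, the rate-limiting enzyme of glutathione synthesis, Anxa1, an anti-inflammatory annexin, and Ly6e, an interferon-inducible membrane protein, rose by 0.90, 1.06 and 0.70 on the log2 scale (adjusted p = 0.0352, 0.0402 and 0.0251). These last 3 genes had, without the 3 tumours, log2 fold changes of 0.69, 1.00 and 0.44 and did not pass (adjusted p = 0.131, 0.0816 and 0.148).

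Many listed groups had no gene that passed. Over all genes tested 1.49% passed, so a count of 0 in lists of 20 to 26 genes is near that share and is no result about their members. Of 26 cell cycle genes 0 passed, with a median log2 fold change of -0.23. Of 25 ribosomal protein genes 0 passed, although all 25 had a negative log2 fold change (median -0.29), and of 23 oxidative phosphorylation genes 0 passed (median -0.19). None of 25 genes that write, read or erase the lysine 36 mark passed (median -0.07), and none of 20 polycomb genes (median 0.14). Of 19 MAPK feedback genes, which report signalling below ALK, 1 fell, against 0.615% of all genes tested. It was Dusp4, a phosphatase of MAP kinases, which went from 59.8, 66.6 and 63.1 CPM to 25.4, 43.4 and 20.1 CPM (log2 fold change -1.09, adjusted p = 0.0492, and -0.77 and 0.269 without the 3 tumours).

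The Variant 1 tumours gave the same contrast in other samples, with none shared, although both contrasts came from 1 fit and share its estimate of spread. There 284 genes passed (1.42%). Of the 299 Variant 3 genes, 286 (95.7%) had the same sign in Variant 1, and 101 passed in both, all with the same sign. The share of equal sign over all genes tested is not given here, so the 95.7% has no base beside it. These 101 are 33.8% of the Variant 3 genes and 35.6% of the Variant 1 genes, with 60 higher and 41 lower. The Variant 1 median was 0.86 for the genes higher in Variant 3 and -0.98 for those lower, against 1.27 and -1.88 in Variant 3. The list counts that follow stand against the 1.42% of all genes tested that passed in Variant 1 in either direction. By list, the Variant 1 median was 0.34 for cholesterol synthesis, with 1 of 21 genes tested that rose, and 0.94 for the acute-phase genes, with 5 of 15. It was 0.75 for MHC class I, with 6 of 17 that rose, and -1.57 for the cell cycle, with 4 of 26 that fell.

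The difference between the variants was tested as an interaction. No gene passed (0%), and DESeq2 called 114. In edgeR 1200 of the 20009 genes had an unadjusted p under 0.05, a share close to the 1 in 20 that chance gives. The genes below are therefore given as values and not as differences between the variants. The smallest adjusted p, 0.0982, belonged to Cfap52, whose log2 fold change was -2.93 in Variant 3 and 0.43 in Variant 1, a difference of -3.36 (SE 0.42). Adora1 followed with -4.08 and -0.85, Cd83 with -3.05 and -0.52, and Sytl2, a vesicle-trafficking gene, with -1.27 and 0.62, each with an adjusted p of 0.385. Slco3a1, an organic anion transporter, had -1.18 and 2.12, and did not pass in Variant 3 (adjusted p = 0.173). In the other direction Rhobtb3 had 0.98 and -1.86, Podxl 0.58 and -2.07, and Ndrg4 -0.79 and -3.36, none of which passed in Variant 3. Mapk13, the p38 delta kinase, rose in Variant 3 (0.60, adjusted p = 0.0259) and had -0.22 in Variant 1. Asns, asparagine synthetase, had 0.54 and -0.66. Pygl (3.11 and -0.33) and Cpm (-1.67 and 0.07) were among the 13 Variant 3 genes with the opposite sign in Variant 1, with adjusted interaction p of 0.497 and 0.548.

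**Figure D5:**
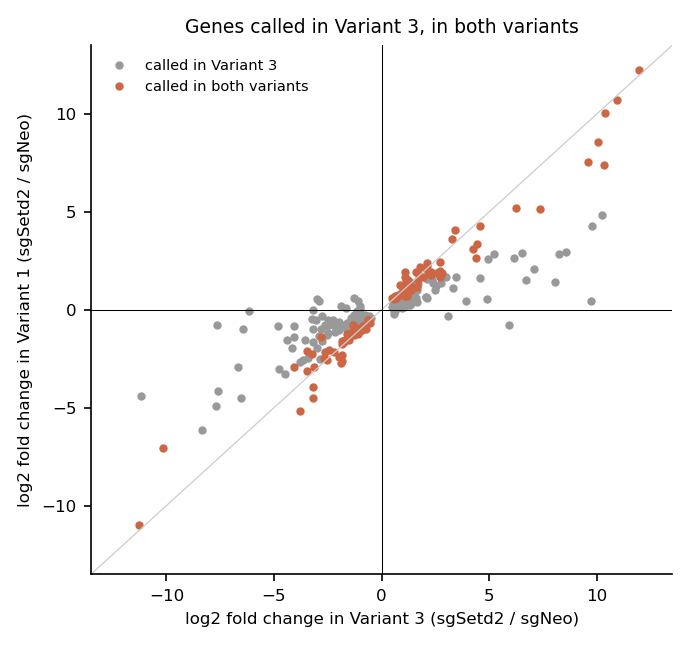
Log2 fold change, sgSetd2 over sgNeo, in Variant 3 (horizontal axis) and in Variant 1 (vertical axis) for the 299 genes that passed in Variant 3, 1 point per gene, coloured for the 101 that passed in both variants and grey for the rest. Of the 299, 286 lie in the quadrants of equal sign, and Cfap52 (-2.93 and 0.43) is among the 13 that do not.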

How the data were processed

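Total RNA of sorted cells was isolated with a PicoPure kit and made into SMART-Seq mRNA libraries, sequenced as paired reads, per the labels' protocols. Values are whole-number counts per gene, deposited by the authors as 1 table with 49585 gene IDs and 36 columns. STAR 2.5.3a, R 4.2 and DESeq2 1.38.3 are named in the submitters' processing notes. Counter, strand setting and genome build were not given in the sources used here. IDs were matched without version to GENCODE M21 (GRCm38), which gave a symbol to all but 259. Promoter windows are from RefSeq.

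Counts of 3 tumours were summed per code. The 12 codes in 4 groups were tested in edgeR 4.0.16 (filterByExpr, TMM, robust quasi-likelihood fit) with Benjamini-Hochberg adjustment over 20009 genes, and each SE is the size of the log2 fold change over √F. The labels do not say that codes are separate animals, so p-values may measure technical spread. Tumour CPM are descriptive. Tests were run on simulated data before use. Alternatives used DESeq2 1.42.0, limma 3.58.1, other scalings and filters, sex as a covariate and leave-one-out fits.

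Named genes were the 15 higher and 15 lower of largest log2 fold change and the 10 higher and 10 lower of highest CPM, among genes that passed, had at least 5 CPM in the higher group, separate codes and an established name. To these were added all listed genes that passed, and the 5 genes per direction of smallest interaction p. Not every gene these rules select is described. Other listed genes given as values, and those set in the neighbour statements, were chosen after their values were seen. Groups, lists and genes were chosen with earlier results of these data known.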

Additional observations from a re-analysis of the deposited data

Results flagged for a closer look

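Among the 9 tumours of a group, 1 tumour lay far from the other 8 in 9 of 118 groups of values tested by Dixon's criterion (critical value 0.493) on log2(CPM + 1), and chance flags about 1 in 20 groups. In sgSetd2, Fam184a was lowest in tumour 4 of CE454 at 0.562 CPM, where the next tumour had 3.39 CPM. Pgc and Ctnnd2 were highest in tumour 5 of CE454, at 0.0799 and 0.659 CPM, and Pcdhb17 in tumour 6 of CE456 at 0.489 CPM, all close to 0. Sat1 was highest in tumour 9 of CE456 at 1872 CPM, with the next at 1612 CPM. In sgNeo, Cd63 was highest in tumour 2 of CE433 at 1311 CPM, with the next at 960 CPM, still below every sgSetd2 tumour. Marker lists are given as mean log2(CPM + 1) of their tested genes. The pan-leukocyte mean of sgNeo was highest in tumour 1 of CE428 at 2.51, with the next at 2.03. The erythroid mean was highest in the same tumour at 1.34, with the next at 0.229, and in sgSetd2 in tumour 10 of CE456 at 0.381, with the next at 0.0803.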

How the results depend on the processing

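The count of 299 Variant 3 genes was 466 with a filter of 5 CPM in 3 codes, 1330 with DESeq2, 1174 with limma voom on tumours with codes as random blocks, 1361 with edgeR on tumours taken as independent, 563 with limma on mean log2-CPM, 172 with the Variant 3 codes alone, and 188 with sex as a covariate. It was 153 without the 3 sgNeo tumours that stand apart, an alternative chosen after seeing the data. Leave-one-out counts ran from 78 to 321, with 78 without CE433, 81 without CE428, 101 without CE450 and 176 without tumour 2 of CE428. Without CE456 the share of higher genes was 70.6%, against 58.9%. The interaction count of 0 was 1 without a filter, 1 with the 5 CPM filter, 114 with DESeq2, 7 with voom and 8 with edgeR on tumours, and leave-one-out gave 0 to 1. The Variant 1 count of 284 was 522, 1500, 511 and 677 with the 5 CPM filter, DESeq2, voom and edgeR on tumours, and 102 with sex as a covariate. Leaving out Variant 3 codes or tumours, which share its estimate of spread, moved it from 67 (without tumour 3 of CE433) to 346, with 175 without tumour 1 of CE428. The cause of these shifts was not tested. The log2 fold change of Setd2 ran from -0.49 to -0.07 in leave-one-out fits and never passed. Of 74 named genes that passed, 20 did so in all 24 leave-one-out fits, 35 did not pass without the 3 tumours, and none reversed under any alternative run. With sex as a covariate 20 of the 74 did not pass, and with the Variant 3 codes alone 35 did not. Results with sex as a covariate are given by gene only for some of the named genes. No paired analysis was possible because the tumour numbers are not shared as pairs between codes.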
